A study of Mus musculus with 1183 samples.

Results

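The 35 genes described here are the genes of glucose uptake and glycolysis (25 genes) and a set of oxygen sensors and hypoxia-responsive genes (10 genes), out of 18072 genes in the count table. They were picked by name for their textbook roles, with earlier results of these data known. Their messages were counted in 1183 single cells, sorted from distal lung. The mice were 7 days old and had lived in hyperoxia, an excess of inhaled oxygen. All but 10 of the cells came through a gate for CD45, the surface protein of blood-derived cells. The labels name 1 female mouse (598 cells) and 1 male mouse (585 cells), do not say whether a name stands for a single or a pooled animal, and assign the cells to 16 subtypes: B cell, T cell, NK cell, IL cell, DC I to III, Mac I to V, mast cell, mast cell II, basophil and neutrophil. Every group compared here shares the age, the tissue and the hyperoxia. Cells kept in normal air were not analysed here, so no value below is an effect of oxygen, and the strain is not given in the labels used here. The labels of subtypes were probably drawn from expression in these cells, and with 1 animal per sex, sex and animal cannot be told apart.

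Glycolysis turns glucose into pyruvate in the cytosol and is a major source of ATP in neutrophils and in activated macrophages and lymphocytes. The hypoxia-inducible factors (HIF) switch most of its genes on: the prolyl hydroxylases Egln1 to Egln3 use oxygen to mark the alpha subunits Hif1a and Epas1, and the ubiquitin ligase subunit Vhl then sends them for degradation. When oxygen is short, the alpha subunits escape this, pair with Arnt and bind DNA at a core of ACGTG or GCGTG. This control acts mainly on the protein of the alpha subunits, which was not measured here.

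Summing the reads by animal and subtype gave 30 libraries (15 subtypes, 2 animals) of 6024429 to 235566546 reads. Levels are reads scaled to the library's total (CPM), with the female before the male, and subtypes are ordered by the mean of both animals. In such sums, fewer cells with a message and less message per cell cannot be told apart. Of 52 markers of 13 subtypes, 48 were highest in the subtype they mark. The exceptions were 2 of 4 in IL cells and 1 of 4 each in DC II and Mac III. In all, 46 cells carried markers of endothelial, red blood or epithelial cells beyond a set limit, and calls of members that changed without them are given both ways below.

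Together the 25 glucose and glycolysis genes took the largest share of reads in basophils, 0.681% in the female and 0.616% in the male. IL cells (0.582% and 0.552%) and mast cell II (0.563% and 0.538%) followed, and DC III held the smallest share, 0.268% and 0.166%. The basophil libraries lay above, and the male DC III library below, all others, while the female DC III library lay within the range of the Mac IV and DC II libraries. The 10 oxygen sensing genes together took only 0.0118% to 0.0543% of reads. By edgeR's quasi-likelihood F test across all 15600 genes tested, 19 of the 35 members differed between subtypes at a Benjamini-Hochberg adjusted p under 0.05, against 34.3% of all tested genes. These were 15 of the 25 glycolysis genes and 4 of the 10 oxygen sensing genes (Epas1, Egln3, Ddit4 and Ndrg1). The smallest adjusted p-values were those of Ldha (3.34e-06), Hk2 (0.000351), Slc2a3 (0.000368), Pfkfb4 (0.000375) and Pfkfb3 (0.00146). At the other end, Gapdh, Pgk1 and Pgam1, enzymes of the middle of the pathway, had adjusted p of 0.998, 0.983 and 0.864. With the animal as a replicate block, Hif1a passed (adjusted p = 0.00814 against 0.0741) and Pdk1 no longer did (0.0559 against 0.0411), so the count stayed at 19. With limma's voom and quality weights Ldha (adjusted p = 1.0), Aldoa (1.0), Pkm (0.373) and Eno1 (0.0584) did not pass. With edgeR on the cells of 1 shared sequencing run Aldoa (adjusted p = 0.701), Pdk1 (0.102), Pfkp (0.0919), Gpi1 (0.0814), Eno1 (0.0633) and Pkm (0.0566) did not. The p-values measure only the spread between these animals.

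For 19 of the 35 members the same subtype was highest in both animals, and for 12 that subtype's libraries both lay above every other library. Over all tested genes these shares were 30.1% and 21.5%. In the heat map of levels, the row of Pfkfb3 is bright in DC III and that of Slc2a3 in neutrophils and basophils, while Aldoa and Pkm are high throughout.

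**Figure D1:**
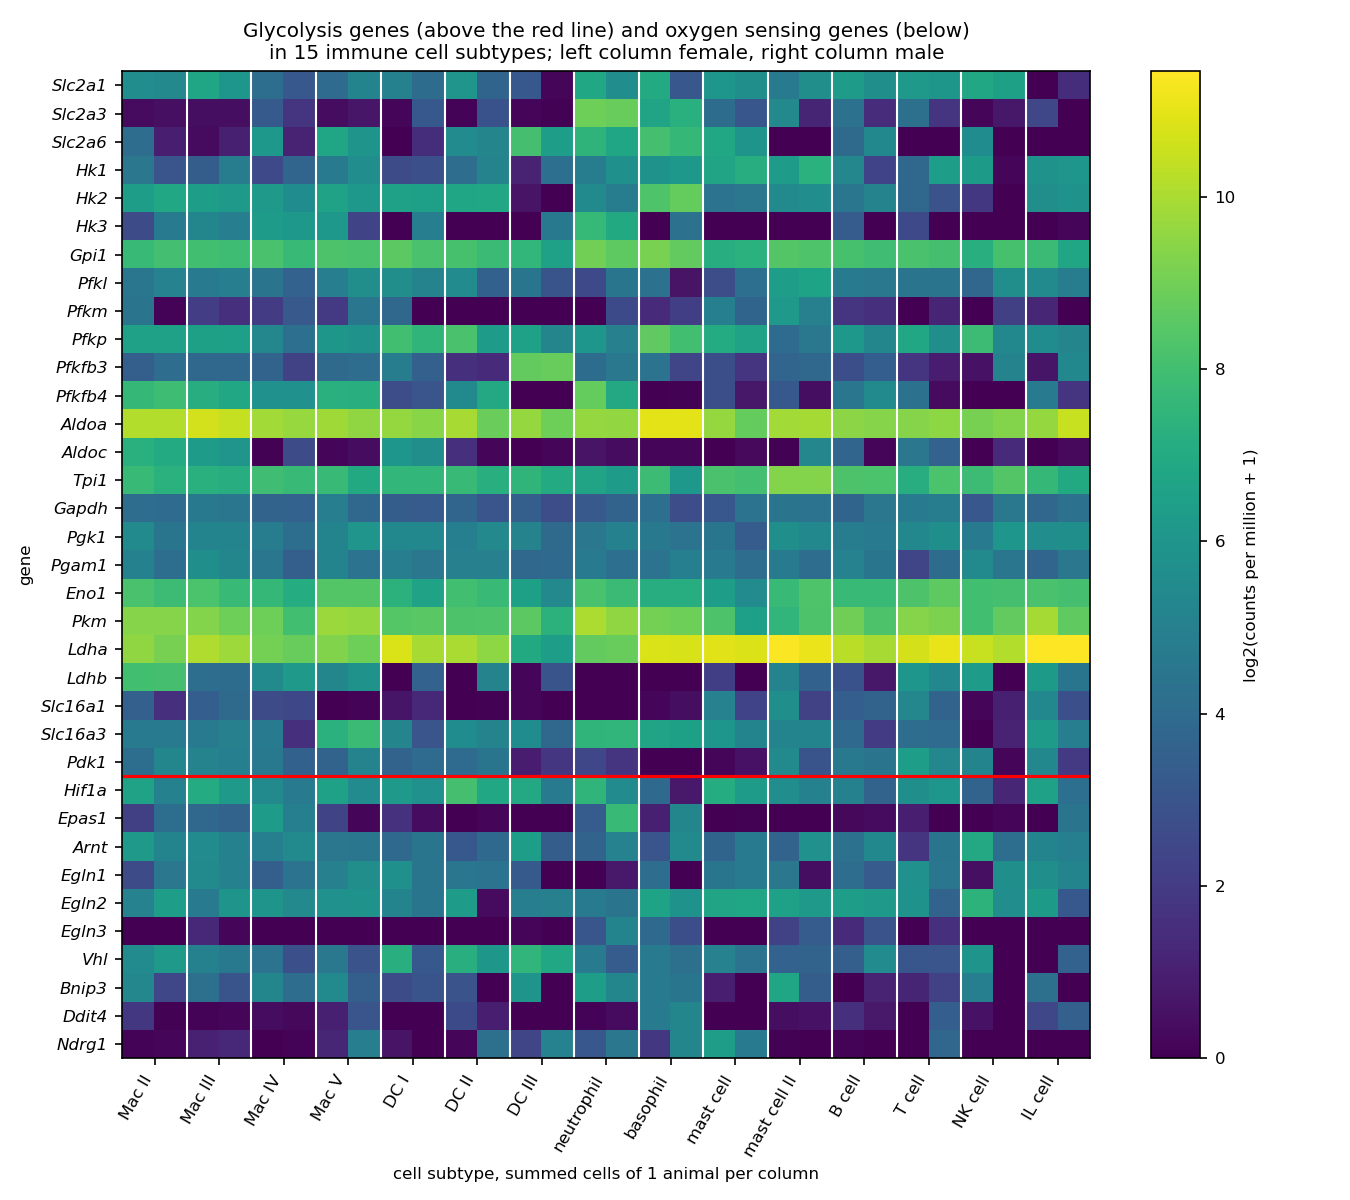
Levels of the 35 members as log2(CPM + 1) (colour) in 15 subtypes, with the female library on the left and the male library on the right of each column; the red line separates the glycolysis genes from the oxygen sensing genes. Aldoa and Ldha are high in nearly every subtype, whereas Pfkfb3 stands out in DC III, Slc2a3 in neutrophils and Hk2 in basophils.

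Glucose enters cells through facilitative transporters. Slc2a3, the high-affinity transporter GLUT3, was a neutrophil gene: 482 CPM in the female and 446 in the male, followed by basophils with 100.9 and 153.97. In Mac III it was at 0.339 and 0.335 CPM and in Mac V at 0.299 and 0.608. The neutrophil libraries lay above all 28 others. Slc2a6, a transporter of the lysosomal membrane known in inflammatory macrophages, was spread over basophils (273.2 and 197.2 CPM), DC III (271.7 and 83.1), neutrophils (174.9 and 106.2), mast cells (113.5 and 60.05) and Mac V (109.04 and 60.2). In mast cell II it had no read in either animal, and in Mac III 0.268 and 1.04 CPM. Slc2a1, the widespread basal transporter GLUT1, reached at most 126.8 CPM (female basophils, 7.68 in the male) and did not pass the test of any difference (adjusted p = 0.129). Per kilobase of the longest coding transcript, Slc2a1 was the highest of the 3 in 5 subtypes, Mac II and Mac III among them (33.9 and 19.4 CPM per kb in Mac III). Slc2a3 led in neutrophils (121.7 and 112.55 CPM per kb) and Slc2a6 in DC III (127.1 and 38.9). In the other 8 subtypes the leader depended on the animal or on the transcript length used.

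Hexokinases trap glucose in the cell by phosphorylating it. Hk2, the inducible form, was highest in basophils at 313.3 and 430 CPM, and next in DC II (109.02 and 111.5) and Mac II (85.995 and 112.4). It was nearly absent from DC III, with 5 reads in the female (0.498 CPM) and none in the male. Hk3, a form of myeloid cells, was highest in neutrophils (203.5 and 122.2 CPM) and then in Mac IV (76.3 and 67.3). Mac V disagreed between the animals, with 68.4 CPM in the female and 4.17 in the male, and the adjusted p of Hk3 over all subtypes was 0.0625, and 0.0265 without the cells carrying non-immune markers. Hk1, the housekeeping form, reached 102.1 and 138.6 CPM in mast cells and 77.9 and 156.3 in mast cell II (adjusted p = 0.346). Per kilobase, Hk1 was the highest hexokinase in 5 subtypes and Hk2 in basophils and 1 other subtype. Hk3 led in Mac IV (23.7 and 20.9 CPM per kb). These leaders held in both animals with the longest and with the median transcript length. With the longest length alone, Hk3 also led in neutrophils (63.2 and 37.96 CPM per kb). The 5 subtypes of Hk1 include NK cells, where the male library held 1 Hk1 read. Gpi1, which makes fructose 6-phosphate, was highest in basophils (562 and 410 CPM) and neutrophils (517 and 391) and lowest in DC III (192.98 and 92.3).

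Phosphofructokinase commits the sugar to glycolysis. Of its 3 isoforms, Pfkp was the highest per kilobase in 12 of 15 subtypes, and its level was greatest in basophils (405 and 250.8 CPM) and DC I (256.6 and 178.2). Mast cell II was an exception: Pfkp was low there (15.2 and 22.9 CPM; only male Mac IV, at 17.4, was lower in its animal) while Pfkl (86.02 and 98.3) and the muscle form Pfkm (69.1 and 31.1) were at their highest. Neither Pfkl (adjusted p = 0.897) nor Pfkm (0.309) passed the test of any difference. The PFKFB enzymes make and break the sugar bisphosphate that is the main activator of phosphofructokinase, and their isoforms were separated by subtype. Pfkfb3, the isoform with the strongest kinase activity, was at 410 and 450 CPM in DC III and at most 40.2 CPM in any other library. Pfkfb4 was at 428 and 120 CPM in neutrophils, 197.8 and 238.9 in Mac II, 154.1 and 143.9 in Mac V and 139.3 and 114.7 in Mac III, and had no read in DC III or NK cells. Per kilobase, Pfkfb4 led in 7 subtypes and Pfkfb3 in 5.

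**Figure D2:**
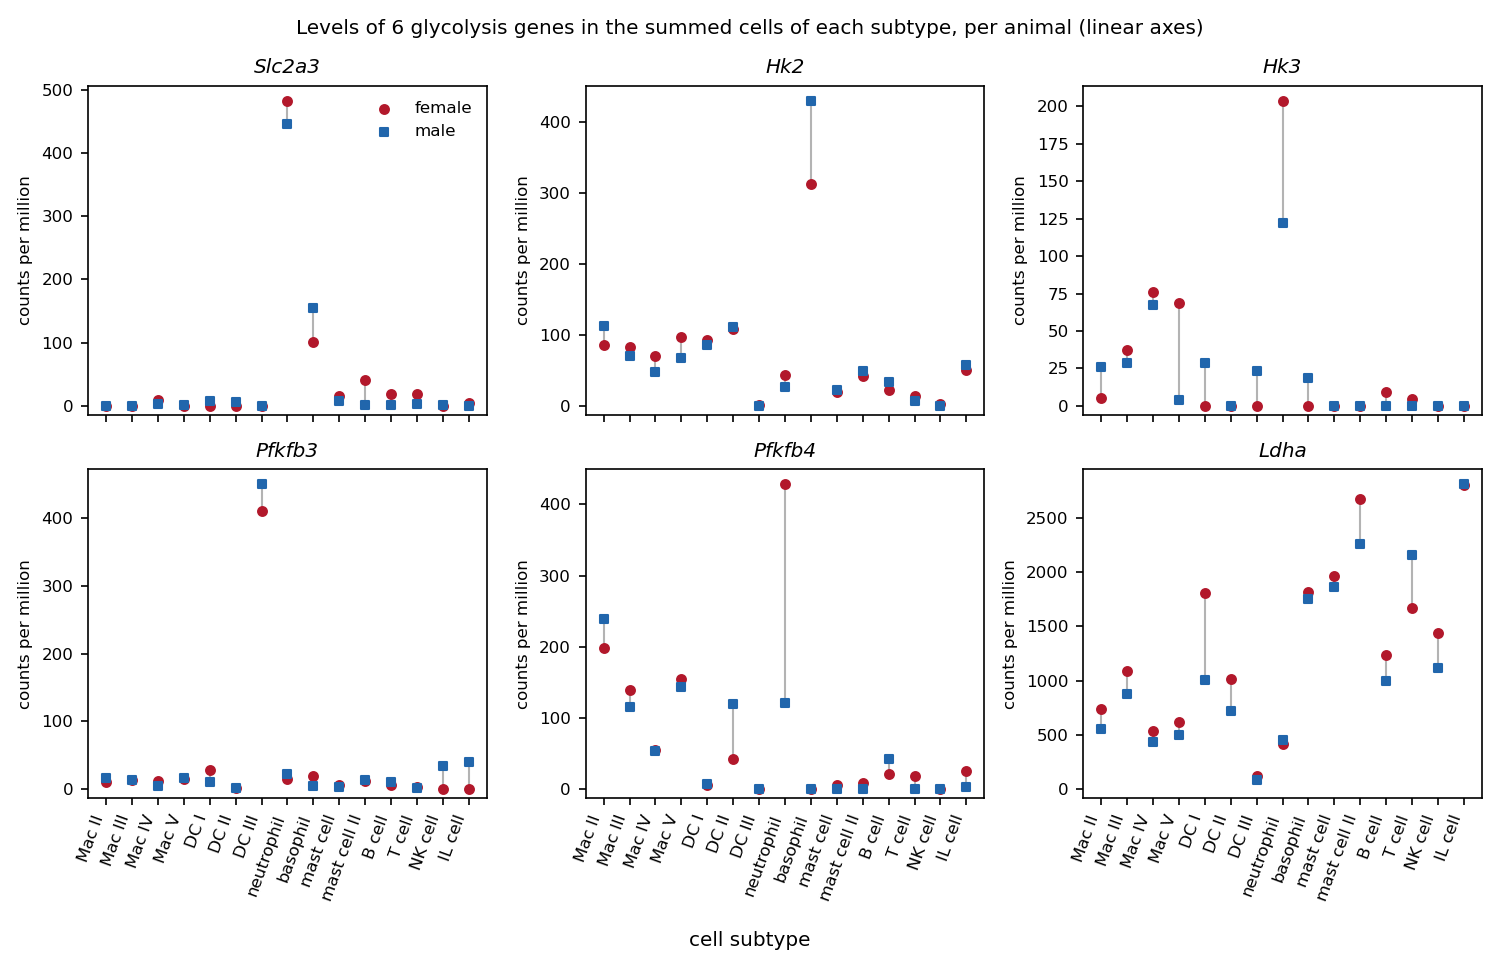
Levels in CPM (vertical axis) of Slc2a3, Hk2, Hk3, Pfkfb3, Pfkfb4 and Ldha in each of 15 subtypes, with 1 point for the female and 1 for the male library. Pfkfb3 is at 410 and 450 CPM in DC III, where Pfkfb4 has no read and Ldha is at its lowest, 124.3 and 83.7 CPM.

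Aldolase splits the phosphorylated sugar. Aldoa was highest in basophils (2051 and 2027 CPM) and Mac III (1646 and 1389), per kilobase above Aldoc in all 15 subtypes. Aldoc, better known from brain, was highest in 3 subtypes, at 152.5 and 128.3 CPM in Mac II, 79.9 and 61.4 in Mac III and 63.5 and 48.95 in DC I, against 0 and 0.128 in DC III. Both passed the test of any difference (adjusted p = 0.00291 and 0.011). Tpi1, triosephosphate isomerase, was highest in mast cell II (652 and 639 CPM), and both libraries lay above all others, yet its adjusted p was 0.298. Pkm, which makes pyruvate, was highest in neutrophils (1048 and 747 CPM) and Mac V (856 and 811) and lowest in mast cells (304.6 and 87.8). Eno1, enolase, was highest in T cells (301.9 and 392) and Mac V (330 and 338.1) and again lowest in mast cells (81.97 and 44.7).

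Gapdh, usually among the most abundant messages of any cell, was at only 5.49 to 29.2 CPM over the 30 libraries, and Pgk1 and Pgam1 at most at 63.2 and 50.8 CPM. These genes have many processed pseudogenes. Of the 75-base windows of the longest coding transcript, 80.3% in Gapdh, 67.5% in Pgk1, 65.4% in Eno1, 46.3% in Bnip3 and 40.6% in Pgam1 also occurred in a transcript of another gene. In Pkm the share was 19.6%, in Ldhb 16.7%, in Pfkp 16.6%, in Gpi1 14.8% and in Ndrg1 12.1%, and it was at most 5.68% in the other members. How the authors' counting treated reads that fit several genes, and the read length, are not given in the sources used here. The levels of those 10 genes are therefore uncertain, and the part of shared sequence in the low level of Gapdh was not tested.

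Lactate dehydrogenase turns pyruvate into lactate and back. Ldha, the form that favours lactate, was above Ldhb per kilobase in all 15 subtypes. It ran from 2801 and 2812 CPM in IL cells, 2669.7 and 2255 in mast cell II and 1964 and 1863 in mast cells down to 420 and 448 in neutrophils and 124.3 and 83.7 in DC III. The libraries of DC III lay below all 28 others. Ldhb, the form that favours pyruvate, was highest in Mac II (253.7 and 272.5 CPM), where it came closest to Ldha (194.6 and 208.9 against 408 and 306.4 CPM per kb). It had no read at all in neutrophils and basophils of either animal, and its adjusted p over all subtypes was 0.0856, and 0.0263 without the cells carrying non-immune markers. In neutrophils that count of 0 put Ldhb at least 1407.6-fold lower than in Mac V and at least 510.99-fold lower than in Mac III, taking 3 reads over the group as the floor. These bounds leave out the spread between animals, and edgeR called Ldhb in neither comparison.

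Lactate leaves and enters cells through monocarboxylate transporters. Slc16a3, the exporter MCT4, was highest in Mac V (158.7 and 225.3 CPM) and neutrophils (178.8 and 182.6), and Slc16a1, the transporter MCT1, was nearly absent from the same cells (0.0239 and 0.0652 CPM in Mac V, 0.0237 and 0.0190 in neutrophils). Slc16a1 was at 9.76 and 14.4 CPM in Mac III and highest, though unequal between the animals, in mast cell II (50.5 and 3.74) and T cells (38.2 and 11.4). Both transporters passed the test of any difference (adjusted p = 0.00489 for Slc16a3 and 0.00476 for Slc16a1). Pdk1, a kinase that inhibits pyruvate dehydrogenase, was highest in T cells (84.7 and 38.9 CPM) and had no read in basophils.

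Among the oxygen sensing genes, Hif1a was highest in DC II (270.7 and 110.9 CPM), neutrophils (176.99 and 44.4), mast cells (136.6 and 77.9) and Mac III (132.8 and 70.5). It was higher in the female in 14 of 15 subtypes, T cells being the exception (50.6 and 63.2). In neutrophils 1 cell gave 44.7% of the Hif1a reads of the female and 1 cell 56.99% of those of the male. Per kilobase Hif1a was above Epas1 in both animals in 11 of 15 subtypes.

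Epas1, the HIF2 alpha subunit and an abundant message of lung endothelium, was highest in male neutrophils (208.3 CPM, against 9.13 in the female) and in Mac IV (77.3 and 29.98). Most of these reads came from few cells. In Mac IV, 9 of 63 female cells and 5 of 79 male cells had at least 50 CPM of the endothelial markers, and these gave 97.3% and 95.8% of the Epas1 reads. In male neutrophils 7 of 78 such cells gave 95.02%. Without them Epas1 was at 2.42 and 1.32 CPM in Mac IV and at 12.2 CPM in male neutrophils, beside 13.5 and 11.7 CPM in Mac III. The difference between subtypes had an adjusted p of 0.00834 with all cells and of 0.0962 without the cells carrying non-immune markers. In the plot of single cells, of 11 neutrophils with at least 50 CPM of Epas1, 6 also had at least 50 CPM of the endothelial markers, as did 11 of 14 such Mac IV cells.

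**Figure D3:**
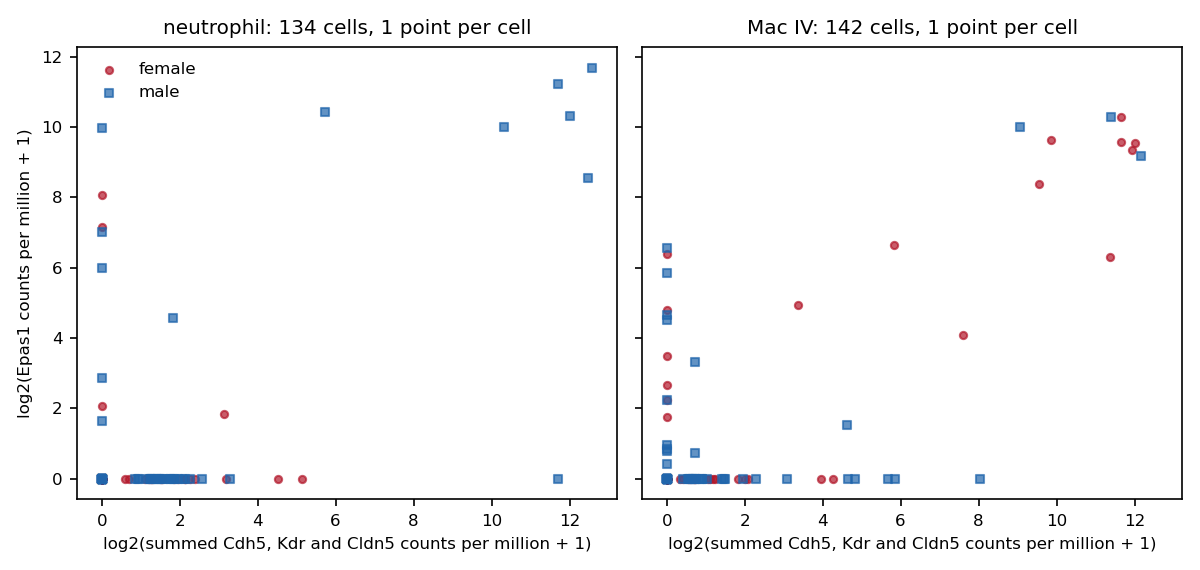
Epas1 in single cells (vertical axis) against the summed endothelial markers Cdh5, Kdr and Cldn5 (horizontal axis) in neutrophils and Mac IV cells. Both axes are log2(CPM + 1), with 1 point per cell, coloured by animal. Of the 14 Mac IV cells with at least 50 CPM of Epas1, 11 also have at least 50 CPM of the endothelial markers.

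Egln1, the main sensor, was between 0 and 53.9 CPM and was nearly absent from neutrophils (0.0237 and 0.724). Egln2 was the highest of the 3 hydroxylases per kilobase in 11 subtypes. Egln3, itself a HIF target, was highest in neutrophils (7.33 and 35.4 CPM) and basophils (14.3 and 5.74). Mast cell II (3.82 and 9.07) and B cells (1.65 and 6.56) followed, and Mac IV and Mac V had no read of it. Vhl was highest in DC III (188.2 and 116.5 CPM; adjusted p = 0.342). Arnt ranged from 2.38 to 118.3 CPM, and its highest value, in female NK cells, came from 5 cells of which 1 gave 95.1% of the reads. Of the HIF targets, Ddit4, an inhibitor of mTOR signalling, was highest in basophils (24.5 and 37.3 CPM), and Ndrg1, a stress-responsive gene, in mast cells (84.4 and 25.5). Bnip3, a mitophagy receptor, was at 83.9 and 37.8 CPM in neutrophils and 107.2 and 9.30 in mast cell II.

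The rest of central metabolism was read from lists of related genes. Of the pentose phosphate genes 2 of 7 differed between subtypes, of the genes of pyruvate entry and the citrate cycle 6 of 20, and of the respiratory chain 1 of 21. Among further HIF targets 10 of 22 tested differed, and among further isoforms and regulators of glycolysis and HIF 5 of 16. The respiratory chain share is the lowest of these and the share of all genes was the 34.3% given above.

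DC III, set against DC I and DC II averaged, gave the most member calls of the 8 comparisons: 1 of 35 was higher (background 2.79% of tested genes) and 3 of 35 were lower (background 4.43%), all 4 of them glycolysis genes. Pfkfb3 was higher in DC III, at 410 and 450 CPM against 27.7 and 10.4 in DC I and 1.97 and 1.68 in DC II. The log2 difference was 6.50 ± 1.29 (SE; adjusted p = 0.00426, edgeR). The groups did not overlap in either animal. Ldha was lower: 124.3 and 83.7 CPM in DC III, 1809 and 1007 in DC I, and 1009.9 and 721 in DC II, a log2 difference of -3.14 ± 0.345 (adjusted p = 1.18e-05). Hk2 was lower with 0.498 and 0 CPM against 86.2 to 111.5 CPM in the 4 other libraries, a log2 difference of -8.56 ± 1.43 (adjusted p = 0.000876). Pfkfb4 had no read in DC III and 5.49 to 119.3 CPM in the other dendritic cell libraries, at least 289.7-fold lower against a floor of 3 reads over the group (adjusted p = 0.0129). Per kilobase, Pfkfb3 was above Pfkfb4 in DC I as well (5.77 and 2.16 against 1.57 and 2.03 CPM per kb) and below it in DC II (0.411 and 0.350 against 12.2 and 34.2).

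Leaving out either DC III library lost the call of Pfkfb4 (adjusted p = 0.0934 without the female and 0.0868 without the male), while Ldha, Hk2 and Pfkfb3 passed without any 1 of the 6 libraries. DC III had 11 cells in each animal, of which 9 female cells came from other sequencing runs than the male cells, some of them outside the CD45 gate. With only the cells of the shared run, 4 members were again called, but the female then gave only 2 DC III, 4 DC I and 5 DC II cells. The median log2 difference of the 25 glycolysis genes was -1.02 and that of the 10 oxygen sensing genes 0.56, against -0.41 for all genes. Another scaling, RLE in place of TMM, moved that median of all genes by 0.20, and by -0.07 to 0.17 in the other comparisons. In single cells thinned to 100000 reads, Pfkfb3 had a read in 8 of 11 female and 9 of 11 male DC III cells, Ldha in 4 and 3 of 11, and Hk2 and Pfkfb4 in none; these shares are given outside the rule on small subtypes and were chosen after their values were seen.

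**Figure D4:**
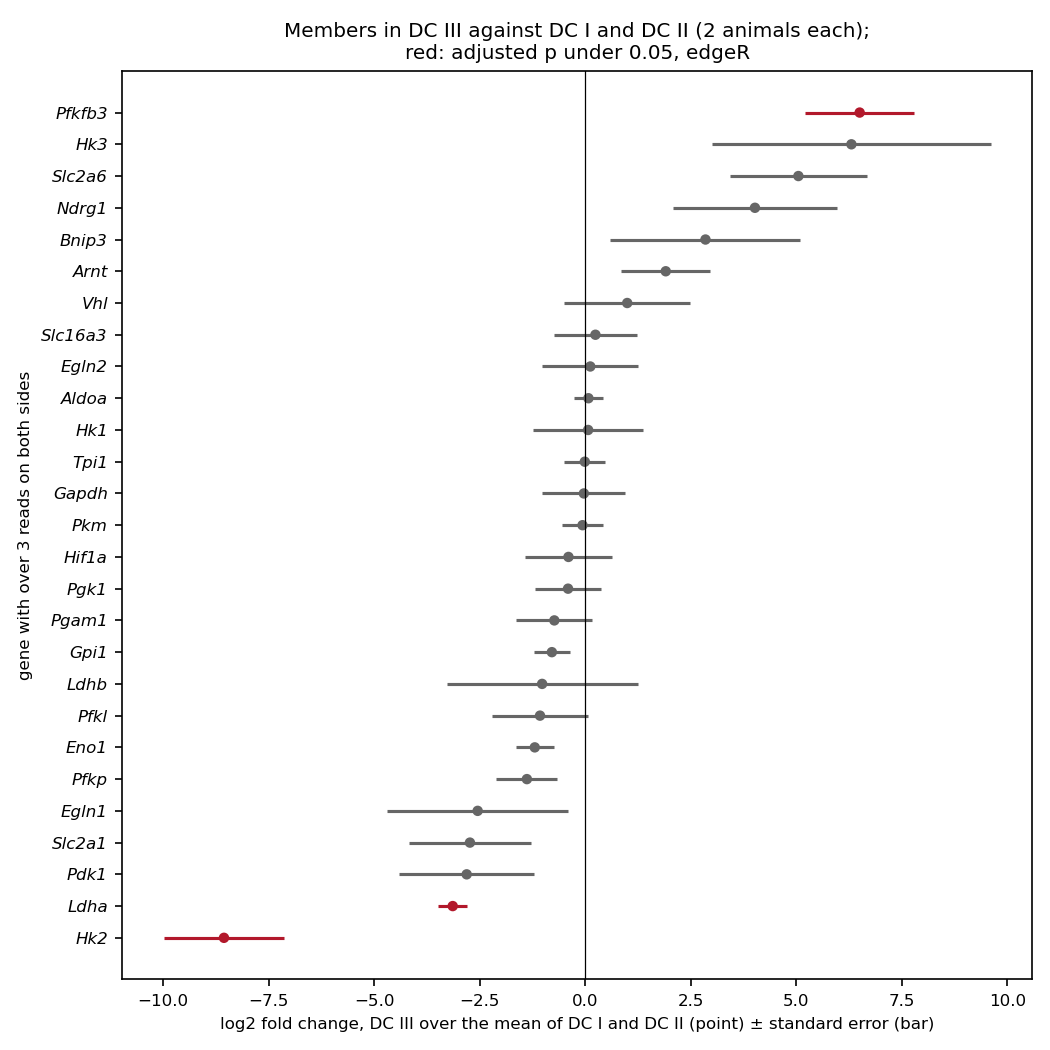
Log2 difference of DC III from DC I and DC II averaged (horizontal axis, point and SE bar) for the 27 members with over 3 reads on both sides, ordered by size; the other 8 had at most 3 reads on 1 side and are not drawn. Pfkfb3 stands at 6.50, and Ldha and Hk2 at -3.14 and -8.56.

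Promoters of these 4 genes are shown because they hold different numbers of the HIF core ACGTG. Each is the 250 bases before a transcription start, written 5′ to 3′ on the gene's strand from RefSeq (build GRCm38.p6), in lower case with ACGTG and its reverse complement CACGT in capitals. The Ldha window is chr7:46845554-46845803 (plus strand) and the Hk2 window chr6:82774455-82774704 (minus strand). The Pfkfb3 window is chr2:11553930-11554179 (minus strand) and the Pfkfb4 window chr9:108991652-108991901 (plus strand).
Ldha: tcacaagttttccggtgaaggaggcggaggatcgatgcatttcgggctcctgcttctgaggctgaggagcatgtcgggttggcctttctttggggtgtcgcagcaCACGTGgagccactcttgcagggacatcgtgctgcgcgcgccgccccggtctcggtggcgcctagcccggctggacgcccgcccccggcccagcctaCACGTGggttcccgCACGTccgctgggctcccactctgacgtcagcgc
Hk2: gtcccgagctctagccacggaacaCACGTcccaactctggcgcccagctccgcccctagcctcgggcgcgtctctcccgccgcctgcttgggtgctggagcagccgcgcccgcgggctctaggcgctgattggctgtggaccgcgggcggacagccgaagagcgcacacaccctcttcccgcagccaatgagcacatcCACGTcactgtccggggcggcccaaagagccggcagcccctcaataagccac
Pfkfb3: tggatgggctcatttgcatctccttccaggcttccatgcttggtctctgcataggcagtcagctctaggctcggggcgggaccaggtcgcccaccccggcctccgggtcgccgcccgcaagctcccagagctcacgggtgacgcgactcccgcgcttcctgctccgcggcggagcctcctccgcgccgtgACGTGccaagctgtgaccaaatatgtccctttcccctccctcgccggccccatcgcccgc
Pfkfb4: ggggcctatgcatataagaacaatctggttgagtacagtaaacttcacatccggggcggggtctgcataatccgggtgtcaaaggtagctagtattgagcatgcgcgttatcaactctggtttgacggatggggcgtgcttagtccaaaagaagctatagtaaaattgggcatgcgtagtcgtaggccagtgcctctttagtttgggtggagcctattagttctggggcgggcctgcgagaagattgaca
In this Ldha window the letters stood in 3 places, of which 2 were the palindrome CACGTG, the nearer ones beginning 48 and 34 bases before the start. The Hk2 window held them in 2 places, the nearer 52 bases before the start, and the Pfkfb3 window 60 bases before it. Ldha and Pfkfb3 each have another RefSeq window, not shown. That of Ldha (chr7:46846832-46847081), whose start lies in the longest transcript, held no match, and that of Pfkfb3 (chr2:11502091-11502340) held 1 CACGTG. The Pfkfb4 window held none, which says only that these letters are not in this window. The 3 genes with matches in the windows shown were the one higher in DC III, Pfkfb3, and 2 of those lower there, Ldha and Hk2.

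RefSeq promoters were matched for 32 of the 35 members, with 46 windows. ACGTG on either strand occurred in 21 of the 46 windows (45.7%), against 16.6% of 32851 windows of all genes. GCGTG occurred in 56.5% of the members' windows against 28.2%, and the palindrome CACGTG, which contains ACGTG on both strands, in 13% against 6.02%. By gene, ACGTG was found in 12 of 24 glycolysis genes and 6 of 8 oxygen sensing genes, 56.2% in all against 23.3% of the matched genes of the count table. GCGTG was found in 65.6% of the members against 45.2% of those genes, and CACGTG in 18.8% against 9.14%. Since the members include textbook HIF targets, this is a description of the set; a match is not evidence of binding.

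Other metabolic genes moved in the same comparison. Of the citrate cycle list 4 of 20 were lower in DC III and of the respiratory chain list 3 of 21, with none higher, and list medians of -0.65 and -0.86. Eno2, the enolase of neurons, was at 324.9 and 154.6 CPM in DC III and at 0 and 0.0148 CPM in DC I and DC II averaged (adjusted p = 0.00242). Adm, the HIF target adrenomedullin, was called on 0.0996 and 13.2 CPM against 0 and 0 (adjusted p = 0.0473, and 0.0771 with the replicate block). Hmox1, haem oxygenase, had no read in DC III and 27.9 and 31.3 CPM in the others (adjusted p = 0.00907), and Rrm2, a proliferation gene, none against 52.98 and 55.9 (0.0229). Eno3, the muscle enolase, chosen here after its values were seen, was at 1894 and 565 CPM against 0 and 7.24 (adjusted p = 0.0412, and 0.0573 with the block). Cycling genes and genes that respond to tissue dissociation moved with these results: 4 of 10 of each list were lower in DC III. The summed cycling genes were at 23.8 and 88.5 CPM in DC III against 352.3 to 2133 in DC I and DC II, and the dissociation genes at 1930.3 and 1461 against 4292 to 8094. Their part in the member differences was not tested.

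Mast cells and basophils are granulocytes of the allergic response, the first resident in tissue and the second from blood. Against basophils, 1 of 35 members was lower in mast cells (background 0.724%) and 0 of 35 were higher (background 0.987%). Aldoa was at 793 and 430 CPM in mast cells and 2051 and 2027 in basophils, a log2 difference of -1.94 ± 0.42 (SE; adjusted p = 0.0172, edgeR). Over 9 alternatives its adjusted p ran from 0.000211 to 0.866 and passed in 6. Of the 4 fits that left out 1 library it passed only without the female mast cells (0.0371, against 0.0578 to 0.224 in the others). With the replicate block Gpi1 was also lower (-1.89 ± 0.453, adjusted p = 0.0358; 138.04 and 158.6 CPM against 562 and 410) and Hif1a was higher (4.27 ± 0.981, adjusted p = 0.0275; 136.6 and 77.9 CPM against 14.1 and 0.712). Without the cells carrying non-immune markers Gpi1 was lower as well (-2.04, adjusted p = 0.0307). The median log2 difference was -0.45 for the glycolysis genes and -0.28 for the oxygen sensing genes, against 0.16 for all genes. Among the other lists, Taldo1 of the pentose phosphate pathway (-3.41 ± 0.43, adjusted p = 0.000112) and the mitochondrial pyruvate carrier subunit Mpc2 (-5.03 ± 0.69, 0.000312) were lower in mast cells. Hmox1 was at 31.2 and 34.98 CPM in mast cells and without a read in basophils (0.0113), and Top2a, a proliferation gene, was at 61.7 and 515 CPM against 0.0203 and 0 (0.00453). Of the cycling list 3 of 10 were higher in mast cells, and its part in these results was not tested.

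Mast cell II shared the mast cell name but little of its marker level: the 4 mast cell markers summed to 311.3 and 464 CPM there and to 191360 and 192310 CPM in mast cells. No member was called between them, 0 of 35 higher (background 0.141%) and 0 of 35 lower (background 0.647%), with 7 members at an unadjusted p under 0.05. DESeq2 called 7 and limma with voom 3. Over the whole table these 3 counts were 2079 of 15600, 1697 of 18012 and 884 of 15600 genes. Slc2a6 had no read in mast cell II and 113.5 and 60.05 CPM in mast cells, at least 1037.9-fold lower (adjusted p = 0.0594). Pfkp was at 15.2 and 22.9 CPM against 132.3 and 95.5, a log2 difference of -3.32 ± 0.858 (adjusted p = 0.0771). With the replicate block the Pfkp value was -3.17 with an adjusted p of 0.0329, and without the cells carrying non-immune markers -4.32 with 0.0238, both past the threshold. Hmox1 (0.0429 and 0 CPM against 31.2 and 34.98; adjusted p = 0.0315) and the collagen hydroxylase P4ha2 (0.0429 and 0 against 277.5 and 132.8; 0.0443), both HIF targets, were lower in mast cell II. Of the dissociation genes 2 of 10 were lower too, Junb (-2.38 ± 0.406, adjusted p = 0.00408) and Ier2 (-2.225 ± 0.496, 0.0338), with a list median of -2.37. They summed to 5061 and 4217 CPM in mast cell II and 15878 and 17742 in mast cells, and their part in these results was not tested.

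Neutrophils were compared with the macrophage-lineage classes Mac V and Mac III. Against Mac III, 1 of 35 members was higher (background 0.731%) and 0 of 35 were lower (background 0.679%). The call was Slc2a3, with 482 and 446 CPM against 0.339 and 0.335, a log2 difference of 10.89 ± 2.63 (SE; adjusted p = 0.0383, edgeR). Over 9 alternatives its adjusted p lay between 3.32e-09 and 0.0994 and passed in 7. Leaving out the male neutrophils kept the call (0.0494), and leaving out the female neutrophils or either Mac III library lost it (0.119 to 0.371). Against Mac V none of 35 members was higher (background 0.115%) or lower (background 0.288%). There were 6 members at an unadjusted p under 0.05, 5 called by DESeq2 and 4 by voom. Over the whole table these counts were 2026 of 15600, 1417 of 18012 and 843 of 15600 genes. Slc2a3 came nearest, at 0.299 and 0.608 CPM in Mac V, with a log2 difference of 10.42 ± 2.59 (adjusted p = 0.0954). Egln3 had no read in Mac V (adjusted p = 0.237), at least 990.04-fold lower than in neutrophils. Its neutrophil level was uneven between plates: 15.9 CPM on female plate 1, 0 on female plate 2, 68.6 on male plate 1 and 5.31 on male plate 2. Leaving out the cells with non-immune markers lowered the female value from 7.33 to 3.18 CPM and raised the male value from 35.4 to 43.2.

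Cells with non-immune markers bore on these neutrophil comparisons. Male neutrophils held 581 CPM of the endothelial and 6102 CPM of the red blood cell markers in sum, against 21.4 and 31.6 in the female. Each of the 4 genes of either list had reads in at least 1 animal. Alas2, of the red blood cell list, was at 0 CPM in the female and 106.4 in the male. Without such cells 3.22 times as many genes of the whole table were called against Mac V (63 with all cells), and 500 in place of 220 against Mac III. Slc2a3 was then higher than in Mac V as well, with a log2 difference of 10.56 and an adjusted p of 0.0451. The dissociation genes were also far higher in neutrophils (16331 and 16186 CPM in sum) than in Mac III (1661 and 1217), with 4 of 10 called, among them Egr1 (6.94 ± 1.2, adjusted p = 0.0032) and Dusp1 (5.08 ± 0.818, 0.00177). Their part in the value of Slc2a3 was not tested. Mdh1, the cytosolic malate dehydrogenase, was lower in neutrophils (-2.27 ± 0.536, adjusted p = 0.0328). The respiratory chain list had a median log2 difference of -1.06 with 20 of 21 genes lower and none called, beside 0.11 for the glycolysis members and -0.22 for all genes.

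Among the macrophage classes no member was called. In Mac V against Mac III, 0 of 35 were higher (background 0.314%) and 0 lower (background 0.128%). There were 7 members at an unadjusted p under 0.05, 3 called by DESeq2 and 7 by voom. Over the whole table these counts were 1467 of 15600, 910 of 18012 and 2573 of 15600 genes. Slc16a1 had the smallest p, at 0.0239 and 0.0652 CPM against 9.76 and 14.4, a log2 difference of -7.99 ± 2.32 (adjusted p = 0.179). Slc2a6 came next, at 109.04 and 60.2 CPM against 0.268 and 1.04, a difference of 7.06 ± 2.39 (adjusted p = 0.31). In both genes the libraries of the classes lay far apart without reaching the threshold. In Mac IV against Mac III, 0 of 35 were higher (background 0.212%) and 0 lower (background 0.0513%). There were 4 members at an unadjusted p under 0.05, none called by DESeq2 and 6 by voom. Over the whole table these counts were 1231 of 15600, 496 of 18012 and 2318 of 15600 genes. Ldha was at 539 and 437 CPM against 1086 and 876, a log2 difference of -1.06 ± 0.34 (adjusted p = 0.348). Egln3 had no read in Mac IV and 1.48 and 0.140 CPM in Mac III (adjusted p = 0.495). The median log2 difference of the glycolysis genes in Mac IV was -0.85, with 19 of 25 below 0, against 0.00 for all genes. Dissociation genes were again higher than in Mac III in both classes, by 4 of 10 calls in Mac V (Egr1, 4.97 ± 1.09, and Dusp1, 3.37 ± 0.755) and 3 of 10 in Mac IV (Egr1, 5.16 ± 1.11, and Ier2, 2.94 ± 0.51), and their part was not tested.

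Between T cells and B cells edgeR called 15 genes of the whole table, DESeq2 1008 and voom 579. None of 35 members was higher in T cells (background 0.0256%) and none lower (background 0.0705%). There were 3 members at an unadjusted p under 0.05, against 1460 of all 15600 genes, with 2 called by DESeq2 and 1 by voom. Ldha was at 1669.7 and 2156 CPM in T cells and 1234 and 998 in B cells, a log2 difference of 0.92 ± 0.339 (adjusted p = 0.465). The T cell libraries both lay above the B cell libraries. Slc2a6 had 1 read in T cells and 2005 in B cells (14.3 and 39.1 CPM), 1459-fold higher in B cells with a 95% counting interval of 261.5 to 57639 that leaves the spread between animals out (adjusted p = 0.261).

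Within subtypes the members differed in how many cells carried them. Every cell was thinned to 100000 reads, and shares of cells with a read are given for the female and the male with exact 95% intervals. Slc2a3 was found in 69.1% (55.2 to 80.9) and 64.1% (52.4 to 74.7) of neutrophils, against 3.87% and 2.88% of Mac III cells. Whether the Mac III reads were low expression or RNA from other cells was not tested. Unthinned, with a median of 616659 and 571915 reads per neutrophil and 1065415 and 1151124 per Mac III cell, the shares were 76.8% and 78.2% in neutrophils and 23.1% and 29.8% in Mac III. Hk3 was found in 36.4% (23.8 to 50.4) and 38.5% (27.7 to 50.2) of neutrophils, and in 41.3% and 44.3% of Mac IV cells. Pfkfb4 was in 81.5% and 80% of Mac II, 72.4% and 68.8% of Mac III and 49.1% and 41.03% of neutrophils, so the highest level, in female neutrophils, went with a smaller share of cells. Hk2 was in 64.1% and 64.4% of Mac III cells and in 23.1% and 30% of mast cells.

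Ldha, in contrast, had a read in every Mac III cell and every mast cell of both animals, but only in 41.8% (28.7 to 55.9) and 53.8% (42.2 to 65.2) of neutrophils. Ldhb was in 81.5% and 90% of Mac II cells and in 17.7% and 13.9% of Mac III cells, and in none of the neutrophils, where the intervals reach 6.49% and 4.62%. Aldoc followed the same order, with 55.6% and 55% of Mac II and 41.4% and 37.5% of Mac III cells. Hif1a was in 74.6% and 78.8% of Mac III cells but in 14.6% and 19.2% of neutrophils, where single cells held much of its reads. Across the thinned cells of a subtype, Spearman's rho of pairs of members found in most cells ran from -0.158 to 0.285 in Mac III and from -0.268 to 0.253 over 110 Mac V cells. In Mac IV it ran from -0.0456 to 0.457, the highest for Aldoa and Pkm, and in neutrophils from -0.0742 to 0.284. These cells come from both animals and all plates.

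The animals differed in level. The summed glycolysis genes were higher in the female in 14 of 15 subtypes, T cells being the exception, and so were the citrate cycle genes, while the respiratory chain was higher in the male in 13 of 15. By gene, 27 members were higher in the female in more subtypes than in the male and 8 in fewer. This count was not made over all genes, so it cannot be read as a trait of the members. The CD45-gated cells of each animal filled 2 plates, and female plate 1 was sequenced in another run than female plate 2 and the male plates. The 10 cells of other gates came from other runs and are left out here. In Mac III the glycolysis sum was 5289 and 4499 CPM on the female plates and 3897 and 4126 on the male plates. In neutrophils it was 5735 and 4254 against 3807 and 4038, in Mac IV 3720 and 2784 against 2337 and 2492, and in Mac V 4327 and 3911 against 3709 and 3731. Both female plates thus lay above both male plates in these 4 subtypes, with the plate of the other run highest each time.

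Hif1a differed between the plates of the female. In neutrophils it was at 330 CPM on female plate 1, 46.4 on female plate 2, and 29.97 and 58.4 on the male plates. The cell that gave 44.7% of the female reads was on plate 1, which stood at 169.1 CPM without it. In Mac V the values were 137.2, 54.3, 55.2 and 38.5, in Mac IV 67.04, 21.6, 29.3 and 22.96, and in Mac III 170, 100, 76.2 and 65.9. Female plate 1 was highest in all 4 subtypes, and female plate 2 was above both male plates only in Mac III. With 1 animal per sex and 1 run holding a single female plate, no test was made, and run and plate cannot be told apart.

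**Figure D5:**
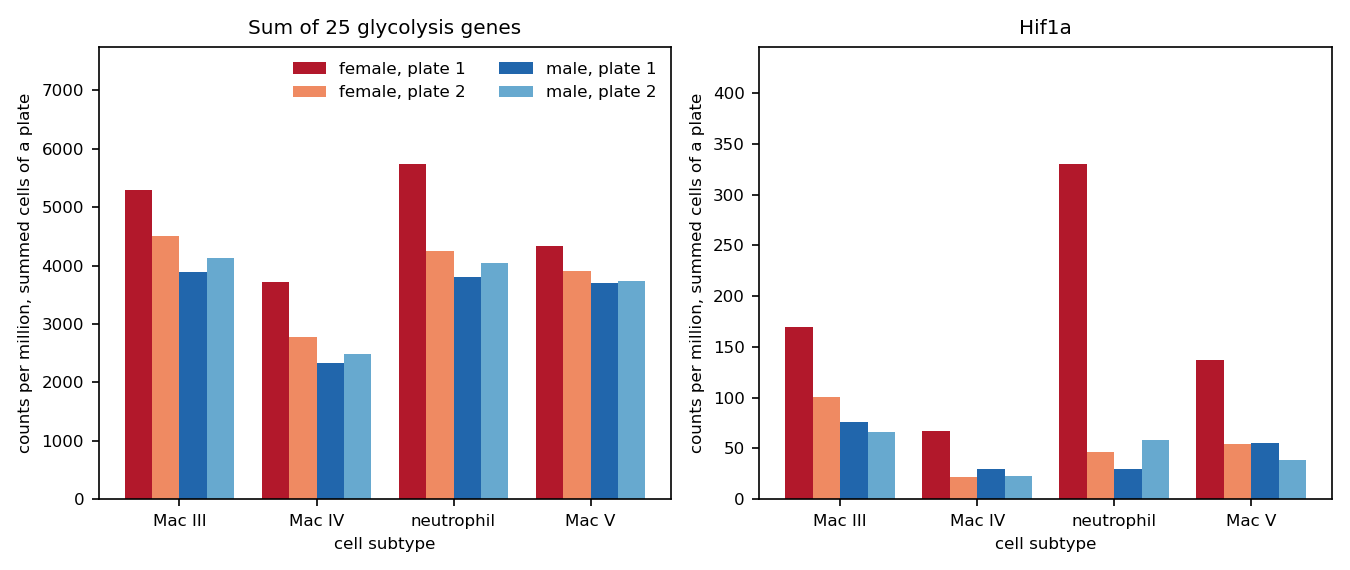
Summed CPM of the 25 glucose and glycolysis genes, and CPM of Hif1a (vertical axes), on each of the 4 plates (2 female, 2 male) in Mac III, Mac IV, neutrophil and Mac V. The glycolysis sum is higher on both female plates than on both male plates in each subtype, and Hif1a is highest on female plate 1, which was sequenced in a separate run.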

How the data were processed

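Expression was measured by plate-based single-cell RNA-seq with Tn5 transposase, per the labels' protocols. The authors deposited whole-number read counts per gene and cell. Per the submitters' processing notes, STAR 2.5.2b and HTSeq 0.10 were used and GRCh38, a human build, is named although the symbols are of mouse, so the build behind the counts is unsettled. The handling of multiply mapped reads and of strand is not given in the sources used here. No molecular identifiers are named, so intervals and floors cover counting error only.

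The 1183 cells held 16753 to 7560179 reads each, with a median of 1100966 and none had the counts of another. Counts were added up by animal and labelled subtype, where both animals gave at least 5 cells. Mac I, with 1 cell, was left out. edgeR 4.0.16 (R 4.3.3) was run with its quasi-likelihood F test, TMM, filterByExpr (15600 genes left) and Benjamini-Hochberg adjustment, with all 15 subtypes in 1 fit so that they shared the spread (common biological coefficient of variation 1.15). A gene was called at an adjusted p under 0.05. The procedure was also run on simulated counts with a smaller spread than that of these data, so error rates at the present spread were not measured. CPM was computed on library totals, and per-kilobase values used the longest coding transcript, with the median length as a check. Cells were thinned to 100000 reads, which left out 5 cells, and intervals on shares are exact Clopper-Pearson at 95%. Doublets were not called.

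The same animal gave 1 library to every subtype, so the replicate number pairs them by source. Deviations of same-numbered libraries correlated by -0.06 to 0.08 over 105 pairs of subtypes. Alternatives were RLE scaling, no filter on low counts, DESeq2 1.42.0, limma 3.58.1 with voom and quality weights, the animal as replicate block, equal weight of cells, cells of the shared sequencing run, only the compared subtypes, and leaving out each library. Leaving out the 46 cells with non-immune markers (at least 50 CPM of endothelial, or 1000 CPM of red blood cell or epithelial markers) was chosen after seeing the data. Figures and summaries used Python 3.11.15.

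The members and lists were chosen with earlier results of these data known. In each comparison the members called are given (at most 5 in each direction), or the 2 with the smallest p where none was called, and at most 2 called genes of the other lists in each direction. Per-cell values are named where both animals gave at least 20 cells of a subtype.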

Additional observations from a re-analysis of the deposited data

Results flagged for a closer look

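The single cell labelled Mac I entered no comparison. In it 22 of the 35 members had over 3 reads, the limit that a count of 0 allows, and there was no control cell to set beside it. Aldoa had 3490 reads, Ldha 2145, Eno1 987, Hk2 578 and Slc2a6 545, while Hk3, Pfkfb3, Slc16a1 and Epas1 had none. With 1 cell, no spread can be given.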

How the results depend on the processing

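For the test of any difference, between 14 and 23 members passed under the 8 alternatives, against 19; 11 members passed under all of them and 8 under none. No named member changed direction under any alternative. The number of members called depended most on the tool. DESeq2 called 5 in neutrophils against Mac V, 8 against Mac III, 3 in Mac V and 0 in Mac IV against Mac III, 13 in mast cells against basophils, 7 in mast cell II, 11 in DC III and 2 in T cells, with 496 to 3912 genes called over the whole table where edgeR called 15 to 1126. voom called 4, 9, 7, 6, 6, 3, 4 and 1 in the same order, with 579 to 2573 genes in all. In that order DESeq2 called 1417, 1770, 910, 496, 2546, 1697, 3912 and 1008 of 18012 genes. The voom calls were 843, 2384, 2573, 2318, 1440, 884, 1661 and 579 of 15600 genes. For Ldha in DC III, voom gave -3.05 with an SE of 25.3 (adjusted p = 0.962) against an SE of 0.345 in edgeR; the cause was not tested. Fits on only the compared subtypes called 1 of 34 members tested in neutrophils against Mac V and 5 of 35 against Mac III. They called 4 of 35 in Mac V, 3 of 35 in Mac IV and 2 of 31 in mast cell II. Over the whole table these fits called 97 of 11469 and 732 of 13620 genes in neutrophils against Mac V and Mac III. They called 1241 of 13441 in Mac V and 1711 of 14304 in Mac IV. In mast cell II they called 2.53 times as many genes as the fit on all subtypes. The spread in these fits rests on few libraries. The replicate block called 3 members in mast cells against basophils and 1 in mast cell II against mast cells, and changed no other call of members between pairs of subtypes. Equal weight of cells called 0 in neutrophils against Mac III and 1 in mast cell II. The shared run alone called 0 in neutrophils against Mac III and 0 in mast cells against basophils, on fewer cells. Without cells with non-immune markers, 1 member was called in neutrophils against Mac V, 2 in mast cells against basophils and 1 in mast cell II. RLE scaling and no filter on low counts left every count of the 8 comparisons as it was.

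Leaving out 1 library gave 0 to 1 members in neutrophils against Mac III, 0 to 1 in mast cells against basophils and 3 to 5 in DC III, and 0 in each of the 5 other comparisons. The calls over the whole table in neutrophils were 1.3 times those of all libraries against Mac III and 1.73 times against Mac V without the male neutrophils, and 78 and 8 without the female ones, where all libraries gave 220 and 63. Precision is set by 2 animals and by small subtypes: the least deep library held 6024429 reads from 7 cells. The causes of calls lost under an alternative were not tested.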
